A study of Mus musculus with 14 samples.

Results

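Expression was measured in the left ventricle of CXCR5-/- mice after aortic banding (AB) and after a sham operation, and this comparison of 4 banded with 3 sham-operated mice is described here across all 19937 genes that could be named. These 7 arrays are part of a series of 14, in which 4 wild type (WT) AB and 3 WT Sham hearts make up the other 7. CXCR5 is the receptor for the chemokine CXCL13. All mice were male and on a C57BL/6 background. The CXCR5-/- line lacks the receptor in every cell, since its coding region was replaced by a neomycin resistance gene in embryonic stem cells of another strain and the line was then backcrossed for 8 generations, whereas WT mice were bought from a breeder and are not called littermates in the sources used here. In AB a ligature narrowed the ascending aorta, in Sham mice the aorta was left wide but surgery was otherwise alike, and the left ventricle was taken 3 weeks later with the right ventricle and atria removed. Total RNA of 1 heart went on each Affymetrix mouse gene array. Each gene was read from 1 probe set, and levels are the deposited log2 values, so that a difference of 1 is a doubling. The value of a gene on the arrays is given in replicate order, AB 1 to 4 and then Sham 1 to 3, a change is the AB mean minus the Sham mean on the log2 scale, and a gene rose or fell where limma's adjusted p was under 0.05. A change after a gene's name in parentheses is on this scale.

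Narrowing of the aorta loads the left ventricle with pressure. The muscle cells grow, return to genes of the fetal heart, and shift away from the burning of fatty acids on which the adult heart runs. Fibroblasts lay down collagen and become contractile, macrophages gather, and the ion currents that end each beat become smaller. The loaded heart is prone to dilatation and to disturbances of rhythm.

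In CXCR5-/- hearts 1650 genes rose with AB, 8.28% of those tested, and 1168 genes fell, which is 5.86%. The median change over all genes was -0.01. A change above 1 was found for 189 genes that rose and one below -1 for 63 genes that fell. With all arrays set to the same median, 48.2% of the called genes were higher, against 58.6% here, and the median change over all genes was -0.06. The array medians lay between 5.19 and 5.30, and the 7 arrays correlated with one another over genes at 0.977 to 0.992. These p-values measure the spread between mice. A ventricle is a mixture, and in such a bulk sample fewer cells of a type and less RNA per cell cannot be told apart, nor can more of either. The Cxcr5 probe set read 4.43, 4.47, 3.97 and 4.21 after AB and 4.09, 4.11 and 3.85 after Sham, and it is not known whether it lies in the replaced region, so it does not check the genotype.

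The tissue label was checked against genes of the ventricle. Of 10 ventricular genes only Kcnd2 fell, and Myl2, the light chain of ventricular myosin, lay at 12.55, 12.54, 12.35 and 12.47 after AB and 12.57, 12.54 and 12.57 after Sham. Myl7, the atrial light chain, lay at 5.74, 6.91, 7.0 and 7.49 after AB and 9.68, 8.82 and 6.93 after Sham. It was thus highest on Sham replicates 1 and 2 and overlapped between the groups. Alb, the plasma albumin of the liver, lay at 9.73, 4.43, 8.38 and 5.24 after AB and 3.98, 5.17 and 5.02 after Sham, with AB replicates 1 and 3 far above the other 5 arrays. Of 12 genes of liver plasma proteins 2 rose, Hp and Trf, with a median of 0.73 for the list, the call of Hp being lost without AB replicate 1, 2 or 3 or Sham replicate 1, 2 or 3 (adjusted p up to 0.17) and with Alb as a covariate and with the atrial transcripts as a covariate and after quantile normalization and with robust eBayes (adjusted p up to 0.141) and that of Trf without AB replicate 1 or Sham replicate 2 or 3 (adjusted p up to 0.0719) and with Alb as a covariate (adjusted p = 0.0814). The plot of tissue transcripts by array shows these values beside the means of 4 gene lists. With both Sham replicates 1 and 2 left out, which leaves 1 Sham array whose spread is taken from the other groups, 540 genes rose and 253 fell, and 783 of the 2818 called genes were called again with no change of sign. In that fit 18 of 33 matricellular genes rose, as did 16 of 38 macrophage genes and 7 of 75 genes of cell division, and 9 of 45 fatty acid genes and 10 of 21 genes of branched-chain amino acid breakdown fell. With the atrial transcripts as a covariate 2542 of the 2818 genes were called, and with Alb as a covariate 2234 were. The part of carried-over tissue in each gene's change was not tested.

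**Figure D1:**
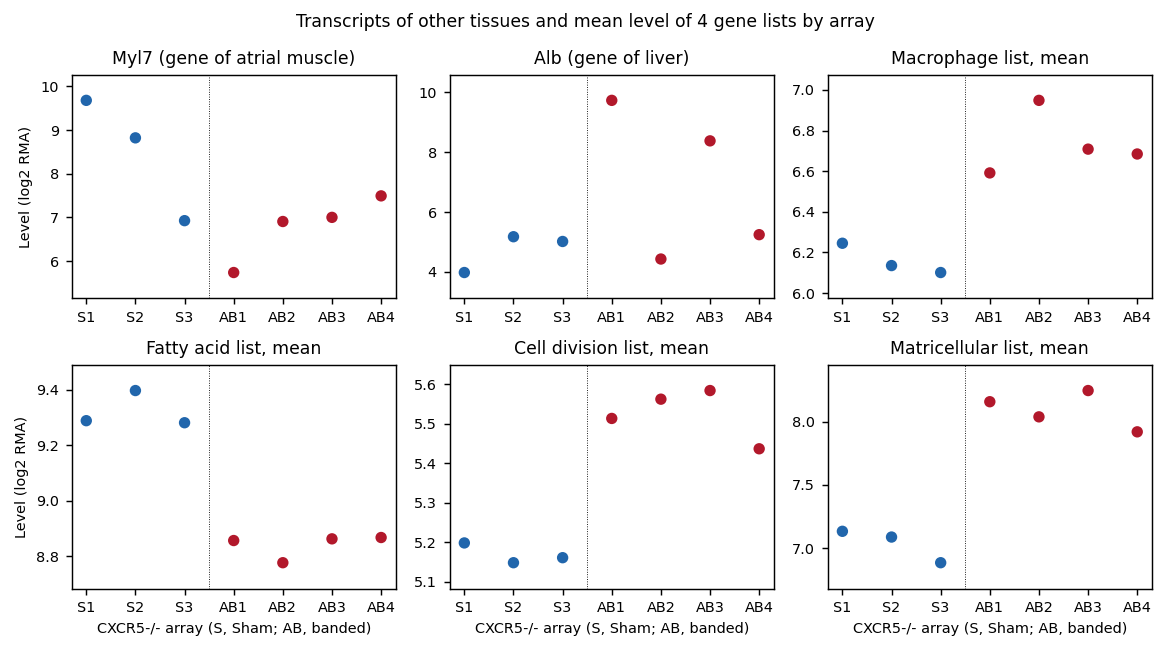
Levels (log2 RMA) on the 3 Sham (blue) and 4 AB (red) CXCR5-/- arrays of Myl7 and Alb, and the mean level of the macrophage, fatty acid, cell division and matricellular lists, 1 point per array. Myl7 is highest on Sham replicates 1 and 2 and Alb on AB replicates 1 and 3, and Myl7 overlaps between the groups.

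Of the gene lists counted, that of matricellular genes, whose products lie in the matrix between cells, had the largest share of increases. Of 33 matricellular and elastic fibre genes measured, 24 rose (72.7%, against 8.28% of all genes) and none fell, and the median change of the list was 0.65. Thbs4, a thrombospondin of stressed muscle and tendon, lay at 9.85, 9.29, 9.77 and 9.41 after AB and 6.63, 6.31 and 6.42 after Sham. Its change of 3.13 (SE 0.14, adjusted p = 7.01e-10), 8.73-fold, was the largest of any gene, and its lowest AB array stood far above the highest Sham array. Postn, periostin of activated fibroblasts, lay at 10.62, 10.75, 10.72 and 10.40 after AB and 7.86, 7.87 and 7.60 after Sham (change 2.85, adjusted p = 7.01e-10). Cilp (2.99), a matrix protein that holds back TGF-β, and the microfibril gene Mfap5 (2.40) also rose. Eln, elastin, rose by 1.38 and the fibronectin gene Fn1 by 1.70, while Tnxb (-0.20), Efemp1 (0.01) and Thbs2 (0.13) did not pass. Further matrix transcripts among the 25 largest increases without overlap were Comp (2.20) and Thbs1 (2.11), both thrombospondins, the collagen gene Col8a1 (2.32), the collagen-binding Fmod (2.09) and Ccn2 (2.04), connective tissue growth factor. The same is true of Itgbl1 (2.18), Pdgfrl (2.10), Pamr1 (1.92) and Ly86 (1.92), an immune cell receptor subunit.

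Fibrillar collagen needs enzymes that hydroxylate, trim and cross-link it, and these were measured next. Of 31 genes of collagen processing 14 rose (45.2%, against 8.28% of all genes) and 2 fell (6.45%, against 5.86%), with a median of 0.22. Lox, the lysyl oxidase that cross-links collagen and elastin, lay at 7.52, 8.07, 8.03 and 7.05 after AB and 5.51, 5.38 and 5.09 after Sham, with no overlap and a change of 2.34 (adjusted p = 1.01e-05). Its relatives Loxl1 (1.47) and Loxl3 (1.34) rose, and Loxl4 was at 0.03 and did not pass. In the prolyl hydroxylase gene family the members that rose included P3h2 (0.96) and P3h3 (0.48), and P3h4 fell (-0.73). The 4-hydroxylase subunits P4ha1 (0.08), P4ha2 (-0.08) and P4hb (0.03) did not pass. The propeptide is removed by Bmp1 with the help of Pcolce, which rose by 1.30. Among 37 matrix proteases and inhibitors 10 rose and 1 fell. Mmp14, a protease of the cell membrane, rose by 1.36 and its substrate Mmp2 by 1.09, and the inhibitor Timp1 lay at 8.09, 8.47, 7.66 and 7.37 after AB and 5.62, 5.51 and 5.41 after Sham. Neither Mmp9 (-0.11) nor Mmp8 (-0.01), the proteases of neutrophils, passed.

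Fibroblast markers rose, but not all of them. Of 25 markers 17 rose and 1 fell, and the median change was 0.65. The exception was Scara5, a ferritin receptor of resting fibroblasts, at 5.65, 5.78, 5.60 and 5.61 after AB and 6.66, 6.78 and 6.57 after Sham. It fell by 1.01 (SE 0.09, adjusted p = 7.83e-07), and every AB array lay below every Sham array. Cthrc1 (1.79), a secreted protein of activated fibroblasts, Lum (1.5), a collagen-binding proteoglycan, and Pi16 (1.51) rose. So did a type I collagen gene that, with Pdgfra, was used to define fibroblasts, and its call held with any 1 array left out. Pdgfra, the receptor that defines cardiac fibroblasts, changed by 0.43 (adjusted p = 0.0384), a call that was lost without AB replicate 1, 2 or 3 or Sham replicate 1 or 3 (adjusted p up to 0.147) and with Alb as a covariate and with the atrial transcripts as a covariate and with equal array medians and with the replicate block (adjusted p up to 0.163). Of 25 genes of smooth muscle and myofibroblasts 13 rose and none fell. Those that rose included Meox1 (1.98), a transcription factor of activated fibroblasts, Cald1 (0.68), which binds actin, and Actn1 (0.69), non-muscle actinin. Acta2, smooth muscle actin and the usual sign of a myofibroblast, was at 10.41, 10.39, 10.50 and 10.52 after AB and 10.13, 10.23 and 10.13 after Sham, and with a change of 0.29 (adjusted p = 0.133) it did not pass, although the groups did not overlap, nor did Myh11 (-0.44), the myosin of smooth muscle.

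**Figure D2:**
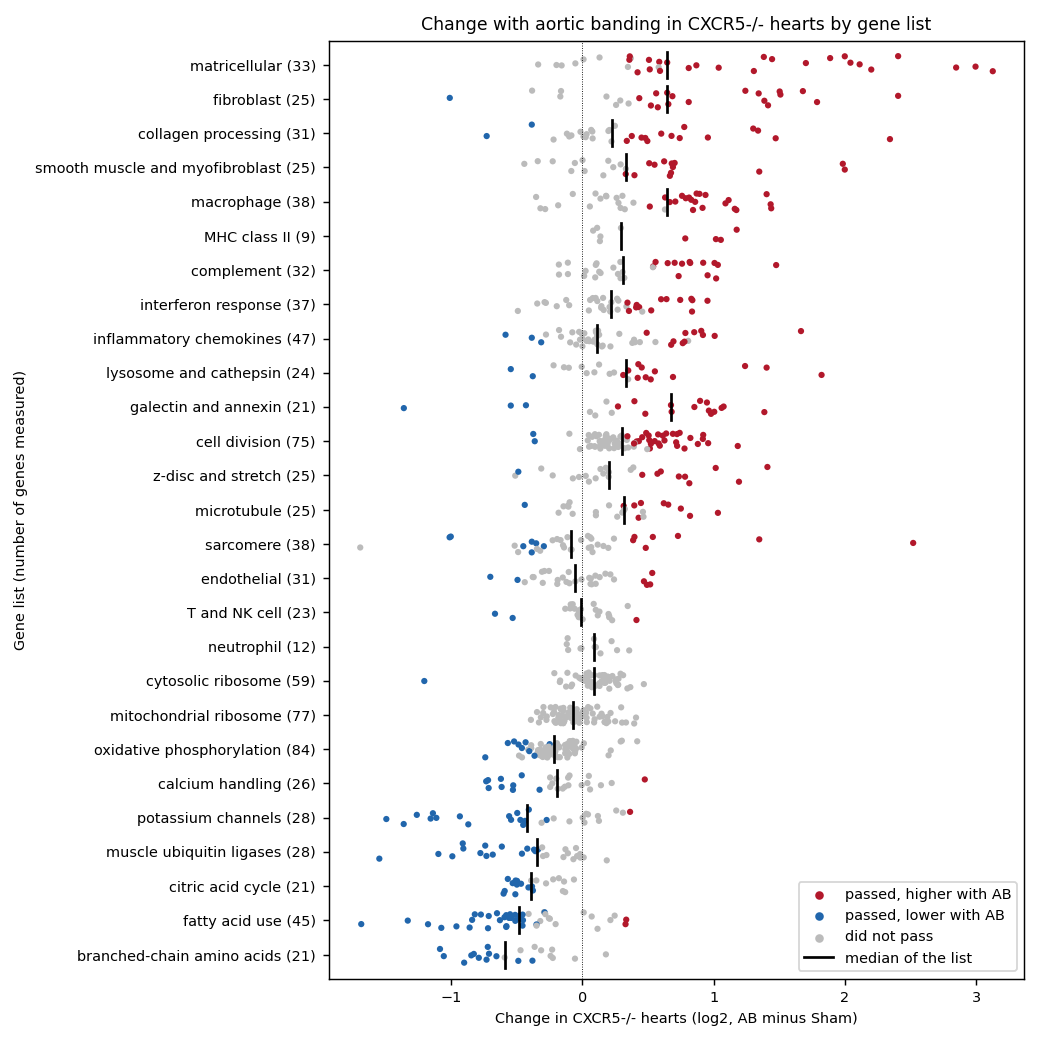
Change of each gene (log2, AB minus Sham, CXCR5-/- hearts) in 27 gene lists, 1 point per gene, red where it rose, blue where it fell and grey where it did not pass, with a bar at the list median. The median is 0.65 for matricellular and fibroblast genes and -0.59 for genes of branched-chain amino acid breakdown, while the ribosome and neutrophil lists lie close to 0.

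Growth factor signals to fibroblasts were examined by role. Of 61 genes of the TGF-β family 14 rose (23.0%, against 8.28% of all genes) and 3 fell (4.92%, against 5.86%), with a median of 0.08. All 3 TGF-β ligand genes rose. Tgfb2 lay at 7.38, 7.16, 7.12 and 7.06 after AB and 5.37, 5.73 and 5.43 after Sham, a change of 1.67 (SE 0.14, adjusted p = 8.61e-07) with the groups apart. Tgfb3 (1.14) and Tgfb1 (1.0) followed. Of the 13 receptors only Tgfbr1 rose (0.90) and only Tgfbr3 fell (-0.60), the latter call being lost without Sham replicate 2 (adjusted p = 0.0815). The latent binding protein Ltbp2 (2.0) and the activin inhibitors Fstl1 (1.62) and Fstl3 (0.92) rose. The fourth ligand gene that rose, of 20 measured, was Gdf6 (0.45), of the bone morphogenetic protein group, a call that was lost without AB replicate 2, 3 or 4 or Sham replicate 2 or 3 (adjusted p up to 0.276) and with equal array medians and in a fit of the 7 arrays alone (adjusted p up to 0.062). No ligand gene fell.

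Wnt signalling is held in check outside the cell by proteins that bind its ligands. Of 54 genes 8 rose (14.8%, against 8.28% of all genes) and 2 fell, with a median of -0.02. Frzb, which binds Wnt ligands, lay at 8.12, 8.08, 8.39 and 7.90 after AB and 6.11, 5.96 and 5.70 after Sham. It rose by 2.20 (adjusted p = 5.12e-08) and did not overlap between groups. Sfrp2 (2.73) and Sfrp1 (1.73), of the same family, also rose, whereas Sfrp4 (0.45), Sfrp5 (-0.22) and the Dickkopf genes did not pass. No Wnt ligand of 17 rose, and 1, Wnt5a (-0.54), fell, a call that was lost without Sham replicate 2 (adjusted p = 0.052). Axin2 (-0.24), a target by which canonical Wnt activity is read, and Lef1 (-0.01) did not pass.

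Insulin-like growth factor 1 is a growth signal for heart muscle and for fibroblasts. Igf1 lay at 6.88, 7.27, 6.83 and 7.07 after AB and 5.83, 5.76 and 5.57 after Sham, and the change of 1.29 (SE 0.12, adjusted p = 1.61e-06) left no overlap. Its receptor Igf1r (-0.05) did not pass. The binding proteins Igfbp6 (1.58), Igfbp7 (1.17) and Igfbp3 (0.90) rose, and Igfbp2 (0.20) and Igfbp5 (0.45) did not pass. In the epidermal growth factor family 4 of 14 genes rose and 3 fell. The ligands Hbegf (0.97) and Nrg1 (0.65) rose with the receptor Egfr (0.72), and Erbb4 (-0.55), the neuregulin receptor of heart muscle cells, fell. Edn1 (0.90), endothelin-1, and Ace (0.81), the enzyme that makes angiotensin II, rose as well. Among 31 angiogenic factors 8 rose (25.8%, against 8.28% of all genes) and 2 fell (6.45%, near the 5.86% of all genes). Vegfd (1.45) and Pdgfc (0.84) rose, Angpt1 fell (-1.24), and Vegfa (-0.33) did not pass.

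Macrophage genes rose together. Of 38 markers 21 rose (55.3%), none fell, and the median change was 0.65, and the count was 21 or 22 with any 1 of the 7 arrays left out. Mpeg1, the macrophage perforin, lay at 7.32, 7.48, 7.33 and 7.06 after AB and 5.97, 5.69 and 5.91 after Sham. Its change was 1.44 (SE 0.12, adjusted p = 4.91e-07), and all AB arrays were above all Sham arrays. Clec4n (1.43), a receptor for fungal sugars, Ctss (1.40), a protease of antigen processing, and Cd68 (1.09), a lysosomal glycoprotein, also rose. Besides Cd68 another of the markers used to define macrophages rose, and that call held with any 1 of the 7 arrays left out. The rest of the list did not pass, and it included Lyve1 (-0.32), Timd4 (-0.07), Folr2 (0.14), Cd163 (-0.35) and Mrc1 (0.26), whereas Cx3cr1 (0.69), a chemokine receptor of macrophages counted with the chemokines below, rose. Csf1r, the growth factor receptor of the whole lineage, lay at 7.71, 7.75, 7.83 and 7.84 after AB and 7.43, 7.63 and 7.46 after Sham and its change of 0.28 did not pass (adjusted p = 0.166), although the AB arrays were all higher. Of 14 genes of recruited and lipid-laden macrophages 5 rose, among them Lgals3 (1.08), galectin-3, and Gpnmb (0.82), while Trem2 (0.35), Plac8 (0.44) and Chil3 (0.05) did not pass. Ccr2, the receptor by which monocytes leave the marrow, rose by 0.92.

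Class II molecules present peptides to helper T cells. Of 9 genes 4 rose, with a median of 0.29, and these were the chains themselves. H2-Aa lay at 9.40, 9.84, 9.35 and 9.22 after AB and 8.62, 8.02 and 8.19 after Sham, a change of 1.18 (SE 0.15, adjusted p = 4.47e-05). H2-Ab1 (1.02), H2-Eb1 (0.78) and the invariant chain Cd74 (1.05) rose too. Ciita (0.11), the factor that switches these genes on, did not pass, and nor did the loading chaperones H2-DMa (0.29) and H2-Oa (0.08). None of the 12 dendritic cell markers passed, and their median was 0.07.

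Of 32 complement genes 14 rose (43.8%, against 8.28% of all genes) and none fell (median 0.31). The 3 chains of C1q, which starts the classical pathway and is made by macrophages, rose, with C1qb at 8.78, 9.08, 8.84 and 8.62 after AB and 8.12, 7.67 and 7.67 after Sham and a change of 1.01. C1s1 (0.76), a protease that follows it, Masp1 (0.70), a protease of the lectin pathway, and Cfb (1.03) of the alternative pathway rose. So did brakes on the cascade, Cd55 (1.02) and Serping1 (0.82), and the receptor Vsig4 (1.48). The terminal components C6 (0.32), C7 (-0.18), C9 (0.10) and Hc (0.24) did not pass.

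Targets of interferon rose in part. Of 37 genes 13 rose, none fell, and the median was 0.22, and without both Sham replicates 1 and 2 the count was 3. Irf7, the factor that amplifies the interferon response, lay at 7.83, 7.85, 8.08 and 8.12 after AB and 7.03, 7.15 and 6.88 after Sham, apart between groups, with a change of 0.95 (adjusted p = 5.52e-06). Ifit3 (0.84), Isg20 (0.84), Trim30a (0.83) and Oasl2 (0.75) rose. Members below 0 included Gbp3 (-0.10), Gbp4 (-0.49), Iigp1 (-0.28) and Irf1 (-0.12), which did not pass.

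Of 47 inflammatory chemokines and receptors 11 rose (23.4%, against 8.28% of all genes) and 6 rose without Sham replicate 2. The 3 that fell (6.38%) were near the 5.86% of all genes. Cxcl10, a ligand for activated T cells, lay at 6.59, 6.88, 6.19 and 6.09 after AB and 4.80, 4.60 and 4.91 after Sham (change 1.67, adjusted p = 3.39e-06). Cxcl16 (1.01) and Cx3cl1 (0.91), both also tethered to cells, rose, and Ccl11 (-0.58), the eosinophil chemokine, fell. The monocyte chemokine Ccl2 was at 0.11 and the neutrophil chemokine Cxcl1 at 0.11, and neither passed. Cxcl13, the ligand of the receptor that these mice lack, lay at 7.10, 9.45, 5.72 and 4.92 after AB and 4.23, 3.81 and 3.69 after Sham. All AB arrays were above all Sham arrays but spread over more than 4 log2 units, AB replicate 2 being highest, and the change of 2.89 (SE 0.78, adjusted p = 0.0179) was not called without Sham replicate 2 or 3 (adjusted p up to 0.0673) and with robust eBayes (adjusted p = 0.0897). Among 21 genes of the interleukin-1 and TNF families 7 rose and none fell. Il33 (1.05), an alarm signal released by damaged cells, and Tnfrsf12a (1.11), the TWEAK receptor, rose, while Il1b (0.41) and Tnf (0.28) did not pass. Of the gp130 family no ligand passed, Il6 (0.37) and Lif (0.11) included, and its targets Sprr1a (2.66), a cornified envelope protein of stressed muscle cells, and Serpina3n (2.0) rose.

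Markers of other cell types were read beside these. Of 12 neutrophil markers none passed (median 0.09), with S100a8 at 0.14. Of 23 markers of T and NK cells 1 rose (4.35%, against 8.28% of all genes) and 2 fell (8.7%, against 5.86%), and Cd3e (0.10) did not pass. Of 17 B cell markers 1 rose, Cd72 (1.37), which is 5.88%, against 8.28% of all genes. Cd79a (0.28), of the B cell receptor, and Ms4a1 (0.17) did not pass. Of 31 endothelial markers 4 rose (12.9%) and 2 fell (6.45%). Pecam1 (-0.05) and Cdh5 (0.05), which join endothelial cells, did not pass.

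**Figure D3:**
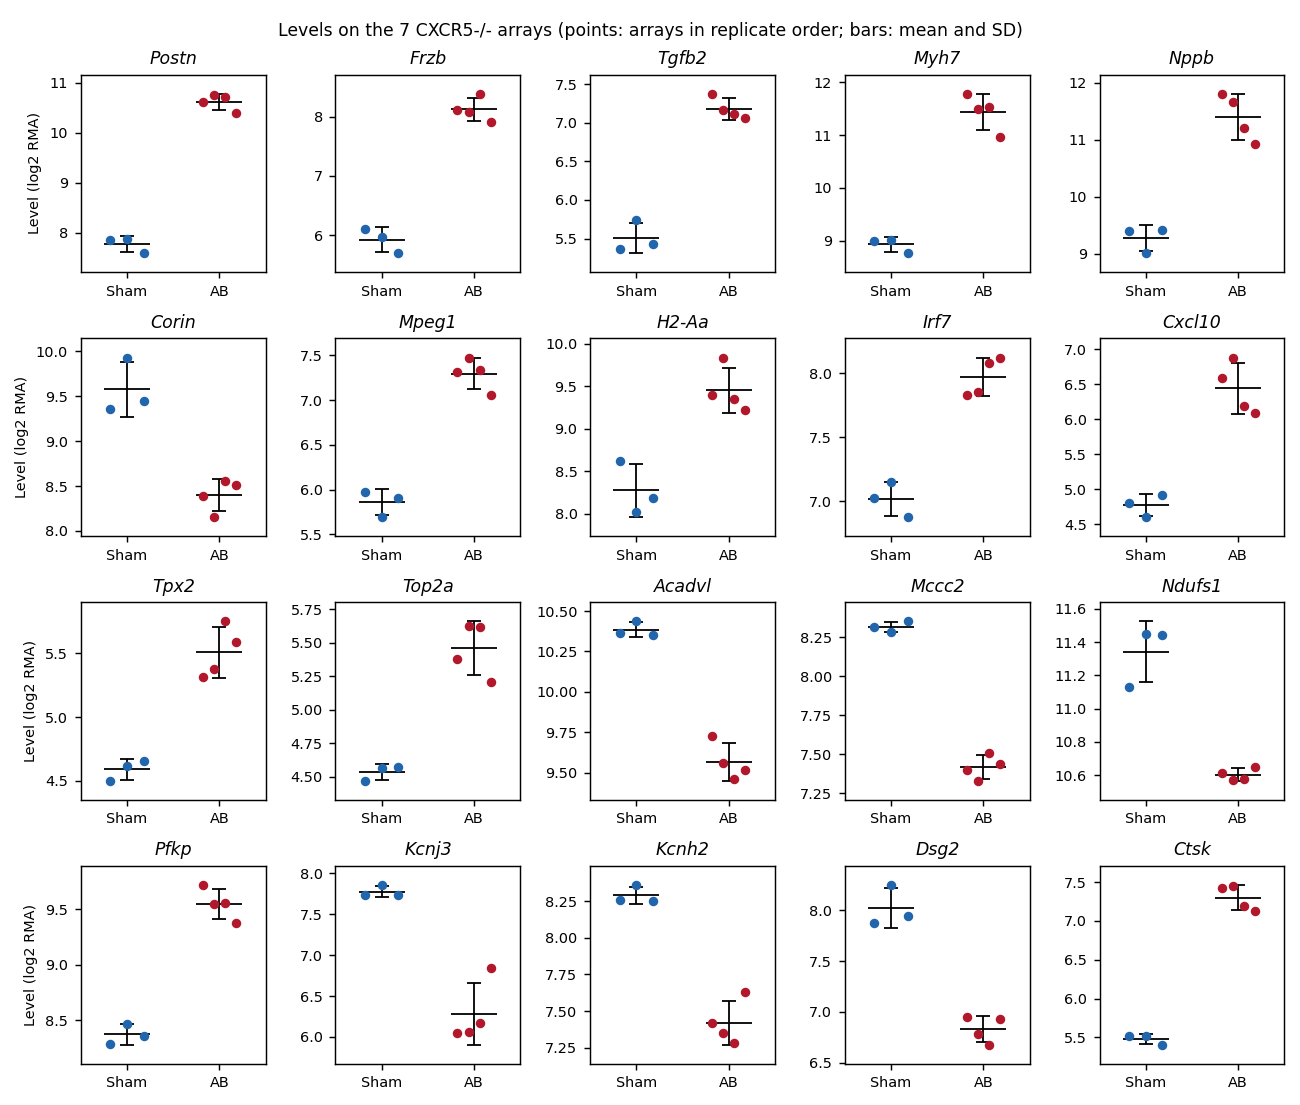
Levels (log2 RMA) of 20 genes on the 3 Sham (blue) and 4 AB (red) CXCR5-/- arrays, points in replicate order with the mean and SD of each group. For every gene shown the AB arrays lie wholly above or wholly below the Sham arrays, from Postn (change 2.85) to Kcnj3 (-1.49).

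Genes of cell division were counted by phase. Of 37 genes that act in mitosis 23 rose (62.2%) and 1 fell, with a median of 0.51, and of 29 genes of DNA replication 4 rose and none fell, with a median of 0.20. Over all 75 genes of cell division 29 rose and 2 fell, and the number that rose was 21 to 29 with 1 array left out. Tpx2, which nucleates the spindle, lay at 5.32, 5.38, 5.75 and 5.59 after AB and 4.50, 4.61 and 4.66 after Sham. With a change of 0.92 (SE 0.11, adjusted p = 1.76e-05) it did not overlap between the groups. Top2a, the topoisomerase that untangles chromosomes, lay at 5.38, 5.62, 5.62 and 5.21 after AB and 4.47, 4.57 and 4.57 after Sham, and its change was 0.92 (adjusted p = 7.00e-04). Anln (1.18) of the cleavage furrow, the cyclin Ccna2 (0.96), the kinase Cdk1 (0.69) and the proliferation marker Mki67 (0.72) rose. Of the replication genes Rrm2 (0.78), which makes deoxynucleotides, Prim1 (0.71), the primase, and Mcm6 (0.43) of the helicase rose, whereas Pcna (0.31), Mcm2 (0.20) and E2f1 (0.35) did not pass. Cenpf (-0.36), a kinetochore gene, fell, and that call was lost without any 1 of the 7 arrays (adjusted p up to 0.253) and with Alb as a covariate and with the replicate block (adjusted p up to 0.0834). The plot of mitosis genes by array shows these levels. The cell type in which the genes rose cannot be read from whole ventricle.

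**Figure D4:**
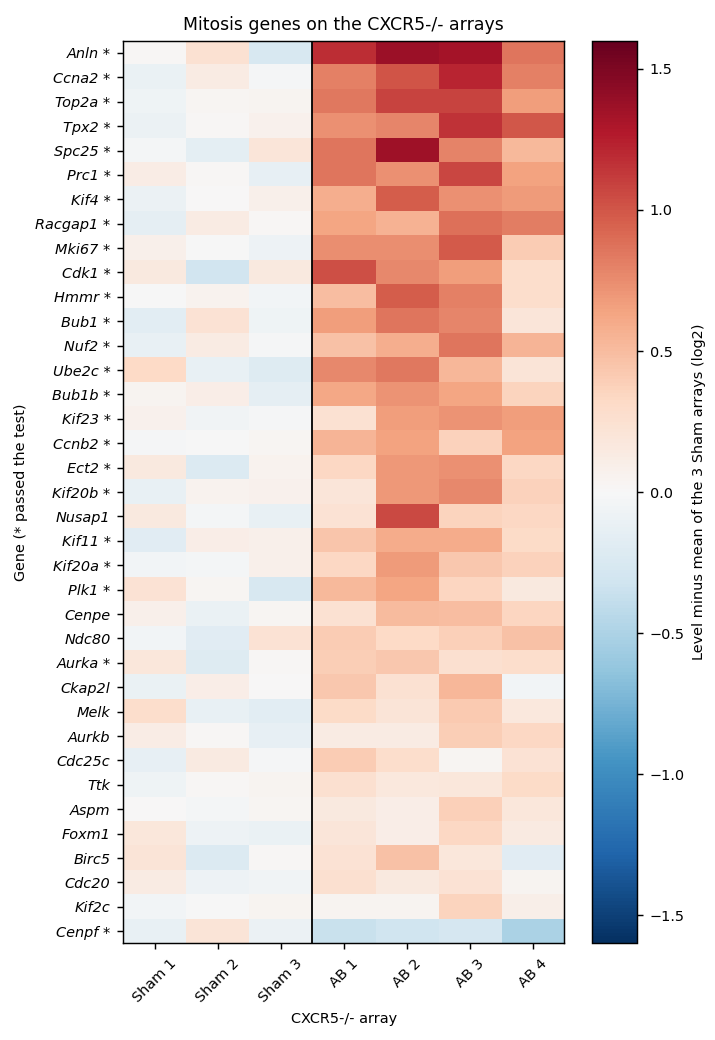
Level of 37 mitosis genes on each CXCR5-/- array minus the mean of the 3 Sham arrays (log2, red higher and blue lower), genes ordered by change, with an asterisk where the test was passed. The 4 AB columns are red for the 23 genes that rose, from Anln (1.18) downward, and blue for Cenpf (-0.36).

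Genes of mitosis share short elements near their start sites. The promoter table (RefSeq, GRCm38.p6, from 250 bases before to 50 after each start) held 33 promoters for 31 of the 37 mitosis genes. The cell cycle homology element, searched as TTTGAA on both strands, was in 27 of these 33 (81.8%), against 14.8% of all 19176 promoters. The CCAAT box, searched as CCAAT on both strands, was in 25 of 33 (75.8%), against 37.4% of all. None of the 36 TTTGAA matches overlapped a CCAAT match. The E2F element, searched as GGCGGGAA, was in 6 of 28 promoters of replication genes (21.4%), against 3.0% of all. A match is only a run of letters, and no binding was measured. The sequences of 4 promoters are shown because these genes rose and carry both elements. Each is the 250 bases before the start, 5′ to 3′ on the gene's strand, with TTTGAA and CCAAT on either strand in capitals. Top2a is at chr11:99024190-99024439, Mki67 at chr7:135716380-135716629, Cdk1 at chr10:69352913-69353162 and Ccnb2 at chr9:70421555-70421804, each on the minus strand.
Top2a: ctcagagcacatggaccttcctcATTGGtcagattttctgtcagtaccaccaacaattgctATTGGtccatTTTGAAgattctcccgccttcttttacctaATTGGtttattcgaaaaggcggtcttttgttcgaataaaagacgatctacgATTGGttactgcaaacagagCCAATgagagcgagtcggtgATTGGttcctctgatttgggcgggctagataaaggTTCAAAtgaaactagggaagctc
Mki67: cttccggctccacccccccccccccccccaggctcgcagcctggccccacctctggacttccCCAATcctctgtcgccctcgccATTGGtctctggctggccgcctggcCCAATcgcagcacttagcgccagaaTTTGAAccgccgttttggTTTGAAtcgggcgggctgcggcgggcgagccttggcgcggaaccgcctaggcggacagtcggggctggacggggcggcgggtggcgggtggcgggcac
Cdk1: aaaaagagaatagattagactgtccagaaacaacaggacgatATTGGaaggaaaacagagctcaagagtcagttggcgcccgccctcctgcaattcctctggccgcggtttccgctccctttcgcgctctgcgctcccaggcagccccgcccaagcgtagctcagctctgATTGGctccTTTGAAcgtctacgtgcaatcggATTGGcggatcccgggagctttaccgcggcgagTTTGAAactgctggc
Ccnb2: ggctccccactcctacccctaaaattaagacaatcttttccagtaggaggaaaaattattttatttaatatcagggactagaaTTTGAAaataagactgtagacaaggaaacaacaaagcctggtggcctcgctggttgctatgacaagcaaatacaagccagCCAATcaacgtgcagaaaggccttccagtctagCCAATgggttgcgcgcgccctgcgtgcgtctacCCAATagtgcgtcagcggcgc

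Transcripts for the burning of fatty acids fell. Of 45 genes 30 fell (66.7%, against 5.86% of all genes) and 2 rose, with a median of -0.48, and with any 1 array left out 26 to 30 fell. Of 25 genes of beta oxidation, which runs in the mitochondrion and in the peroxisome, 20 fell and none rose. Acadvl, the dehydrogenase that begins the oxidation of long chains, lay at 9.73, 9.56, 9.46 and 9.52 after AB and 10.36, 10.44 and 10.35 after Sham. It fell by 0.82 (SE 0.08, adjusted p = 4.98e-06), and the AB arrays were all below the Sham arrays. Acaa2 (-0.86), the last enzyme of the spiral, both subunits of the trifunctional protein, Hadha (-0.51) and Hadhb (-0.59), and the thioesterase Acot2 (-1.18) also fell. Ucp3, an uncoupling protein of the inner membrane, fell most in the list (-1.68). Of the 9 genes of the carnitine shuttle 6 fell, among them Cpt2 (-0.48) and the carnitine transporter Slc22a5 (-0.84). Uptake was mixed. Slc27a1, a transport protein, fell (-1.33), but Cd36 (-0.20), the main fatty acid receptor of heart, and Fabp3 (0.01), the binding protein, did not pass. Acacb, which makes the malonyl-CoA that blocks the shuttle, fell as well (-1.07).

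Stored fat was represented by 40 genes, of which 11 fell and 2 rose. Ces1d, a lipase of lipid droplets, lay at 5.77, 5.72, 6.54 and 7.04 after AB and 8.79, 8.64 and 8.75 after Sham, and its change of -2.46 (adjusted p = 1.69e-05) was the largest decrease of any gene. The droplet proteins Plin5 (-0.68) and Fitm2 (-0.97) and the triglyceride synthase Dgat2 (-0.98) fell. Pnpla2 (-0.33), the main triglyceride lipase, did not pass.

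The breakdown of leucine, isoleucine and valine feeds several points of the citric acid cycle. Of 21 genes 12 fell (57.1%), none rose, and the median was -0.59, and 11 to 13 fell with any 1 array left out. Mccc2, a subunit of the leucine carboxylase, lay at 7.40, 7.33, 7.51 and 7.44 after AB and 8.32, 8.29 and 8.35 after Sham. Its change was -0.90 (SE 0.10, adjusted p = 1.11e-05), with the groups apart by more than the spread of either. The other subunit, Mccc1 (-0.71), and Ivd (-1.05), a step before, fell too. Of the branched-chain dehydrogenase the subunits Bckdhb (-0.72) and Dbt (-0.79) fell, and so did Ppm1k (-1.08), the phosphatase that activates it, while Bckdk (-0.24), the kinase that shuts it off, did not pass. The first step is transamination, and Bcat2 (-0.36) and Bcat1 (0.18) did not pass. Propionyl-CoA from valine and isoleucine is taken on by Pccb (-0.65) and Mmut (-0.73), which fell.

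Of 21 genes of the citric acid cycle and its shuttle 12 fell and none rose, with a median of -0.39. That count rested on single arrays, being 5 without Sham replicate 3, 6 without Sham replicate 2 and 8 without AB replicate 2. Sdha, the flavoprotein of succinate dehydrogenase, lay at 11.25, 11.03, 11.28 and 11.22 after AB and 11.71, 11.77 and 11.80 after Sham and fell by 0.57 (adjusted p = 4.41e-04), with all AB arrays lower. Idh3a (-0.50) and Sucla2 (-0.50), 2 enzymes of the cycle, fell, and Mdh2 (-0.15) and Sdhc (-0.06) did not pass. The plot of fuel genes sets the lists side by side.

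**Figure D5:**
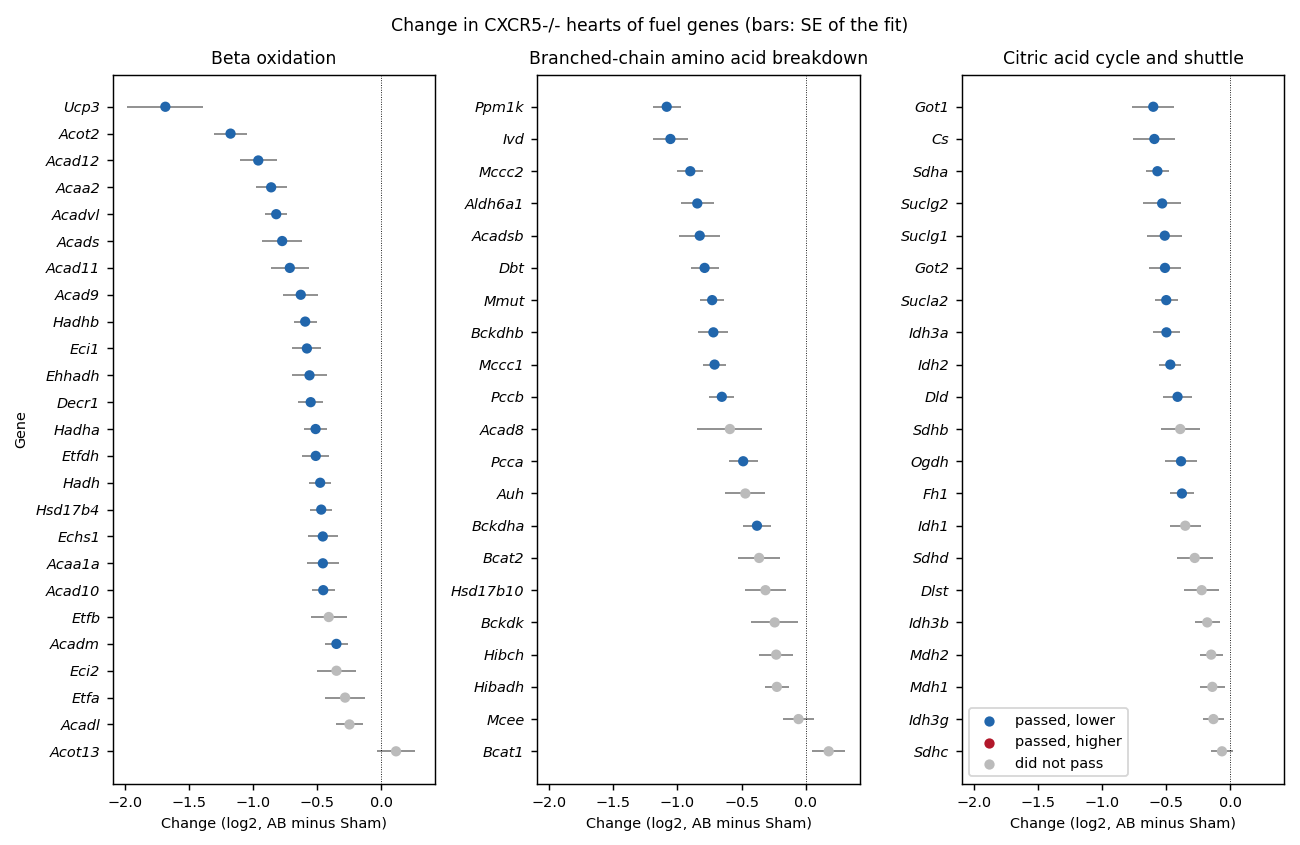
Change (log2, AB minus Sham, CXCR5-/- hearts, bars SE of the fit) of genes of beta oxidation, branched-chain amino acid breakdown and the citric acid cycle, blue where a gene fell and grey where it did not pass. In the first panel 20 of 25 genes fell, from Ucp3 (-1.68), and in each of the others 12 of 21.

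The respiratory chain, in the inner membrane of the mitochondrion, is where the electrons from these fuels end. Of 84 genes 9 fell (10.7%, against 5.86% of all genes) and none rose, and the median was -0.22. The count was 3 without Sham replicate 1, 4 without AB replicate 3, and 5 without AB replicate 4 or Sham replicate 2. Of 35 genes of complex I 3 fell, and Ndufs1, its largest subunit, lay at 10.61, 10.57, 10.58 and 10.65 after AB and 11.13, 11.45 and 11.44 after Sham, every AB array being lower (change -0.74, adjusted p = 0.00167). None of the 77 genes of the mitochondrial ribosome passed, and their median was -0.07. Among 30 regulators of metabolism 6 fell and 1 rose. Ppara (-0.76), the nuclear receptor for fatty acids, and Thrb (-0.78), a thyroid hormone receptor, fell, and Hif1a (0.61), the factor of low oxygen, rose. The coactivator Ppargc1a lay at 8.19, 8.61, 8.39 and 8.69 after AB and 8.77, 9.31 and 9.13 after Sham, and with a change of -0.60 it did not pass (adjusted p = 0.0752), although the AB arrays were all lower. The element of the estrogen-related receptors, searched as AAGGTCA, was in 3 of 41 promoters of fatty acid genes (7.3%) and 3 of 25 of the cycle (12%), against 3.8% of all.

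Glucose is the other main fuel of the heart. Of 55 genes of glucose and glycogen 20 fell and 4 rose, with a median of -0.17. The insulin-responsive transporter Slc2a4 (-0.98) and the hexokinase of muscle Hk2 (-0.84) fell, while the fetal transporter Slc2a1 (0.08) and Hk1 (0.19) did not pass. The phosphofructokinase genes did not change alike. Pfkp, the platelet form, lay at 9.72, 9.55, 9.55 and 9.38 after AB and 8.29, 8.47 and 8.36 after Sham and rose by 1.18 (SE 0.09, adjusted p = 3.41e-07), without overlap. Pfkm, the muscle form, fell by 0.64. Of 18 glycolysis genes 6 fell (33.3%, against 5.86% of all genes) and 1 rose (5.56%, against 8.28%). Aldoa (-0.03), Pgk1 (0.18) and Ldha (-0.04) did not pass, and Ldhb (-0.60), the heart form of lactate dehydrogenase, fell. Pdp2 (-1.18), which activates pyruvate dehydrogenase, fell. Of 17 glycogen genes 7 fell and 2 rose. Gys1 (-0.79), which builds glycogen, and Pygm (-0.73) and Phkg1 (-1.57), which break it down, all fell, and Ppp1r3c (0.56), a subunit that targets phosphatase to glycogen, rose.

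The 25 largest decreases without overlap included 13 genes not described elsewhere here. Fbp2 (-1.44), the fructose bisphosphatase of muscle, Acss1 (-1.21), which makes acetyl-CoA in the mitochondrion, Ogdhl (-1.28), related to a subunit of the oxoglutarate dehydrogenase, and Tbc1d4 (-1.21), which acts in the movement of glucose transporters to the membrane, fell. So did the receptor genes Gpr22 (-1.35) and Mrgprh (-1.31), the phosphate transporter Slc20a2 (-1.25) and the carbonic anhydrase Car14 (-1.19). Dglucy (-1.36), Dusp18 (-1.24), Gpcpd1 (-1.22) and Ppip5k2 (-1.20) also fell. Narf was at -1.21, a call that was lost without AB replicate 1 or 2 or Sham replicate 1, 2 or 3 (adjusted p up to 0.115) and with Alb as a covariate and with the atrial transcripts as a covariate and with robust eBayes (adjusted p up to 0.111).

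Channels that carry potassium out of the cell end the action potential and hold the resting potential. Of 28 channel and accessory genes 16 fell (57.1%) and 1 rose, Kcna4, whose call was lost without AB replicate 1 or 2 or Sham replicate 2 or 3 (adjusted p up to 0.117) and with Alb as a covariate and with equal array medians (adjusted p up to 0.109). The median was -0.42, and 12 to 16 fell with any 1 array left out. Kcnj3, a pore of the acetylcholine-gated channel, lay at 6.05, 6.07, 6.18 and 6.84 after AB and 7.74, 7.85 and 7.74 after Sham. It fell by 1.49 (SE 0.16, adjusted p = 5.58e-06), its AB replicate 4 standing above the other AB arrays but below every Sham array. Kcnj5, the partner pore, fell by 1.26. Kcnj3 and Kcnj5 are stronger in atrium than in ventricle, and both calls held with the atrial transcripts as a covariate. Kcnj2 (-1.36), of the inward rectifier, Kcnd2 (-1.16) and its partner Kcnip2 (-1.14), of the transient outward current, and Abcc9 (-1.11), the sulfonylurea receptor, fell. Kcnh2, of the rapid delayed rectifier, lay at 7.42, 7.35, 7.28 and 7.63 after AB and 8.26, 8.36 and 8.25 after Sham, apart between groups (change -0.87, adjusted p = 1.67e-05). Kcnq1 (-0.31), Kcna5 (0.03) and Kcnk2 (0.13) did not pass. Of 11 sodium and pacemaker channel genes 3 fell, Hcn2 (-0.61), Hcn4 (-0.47) and Fgf13 (-0.45), and 1 rose.

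Calcium released by each action potential makes the muscle contract. Of 26 genes 9 fell and 1 rose, with a median of -0.19, and 4 fell without Sham replicate 2. Ryr2, the release channel, lay at 10.82, 10.71, 10.75 and 10.70 after AB and 11.19, 11.46 and 11.44 after Sham, and fell by 0.62 (adjusted p = 4.83e-04). Camk2a (-0.71), a calcium-dependent kinase, and Hrc (-0.61), which binds calcium in the store, fell, and Fkbp1b (0.48), which holds the release channel shut, rose. Atp2a2, the pump that refills the store, changed by -0.33 (adjusted p = 0.0173), a call that was lost without AB replicate 2 or Sham replicate 2 or 3 (adjusted p up to 0.0721) and after quantile normalization (adjusted p = 0.0581). Its inhibitor Pln (-0.20) did not pass. Downstream of the adrenergic receptors 7 of 22 genes fell and 2 rose, and the cyclase Adcy6 (-0.99) and the regulator of G proteins Rgs2 (-1.01) were among those that fell.

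At the intercalated disc, which joins heart muscle cells end to end, 5 of 16 genes fell and 1 rose. The desmosomal cadherin Dsg2 lay at 6.95, 6.78, 6.68 and 6.93 after AB and 7.88, 8.25 and 7.95 after Sham, and fell by 1.19 (SE 0.11, adjusted p = 1.61e-06) without overlap. Its partner Dsc2 (-0.87) and Ctnna3 (-0.71), which links adherens junction and desmosome, fell. The plaque proteins Dsp (-0.15), Jup (-0.08) and Pkp2 (0.06), and the gap junction gene Gja1 (-0.01), did not pass.

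Contractile genes were split by role. Of 38 sarcomere genes 7 rose and 7 fell, 18.4% each way, against 8.28% and 5.86% of all genes. Myh7, the slow myosin of the fetal mouse ventricle, lay at 11.78, 11.49, 11.53 and 10.97 after AB and 9.0, 9.02 and 8.76 after Sham, with a change of 2.52 (SE 0.18, adjusted p = 1.38e-07) and AB replicate 4 lowest of its group. Myh6, the fast adult form, changed by -0.29 (adjusted p = 0.0232), and this call was lost without AB replicate 2 or Sham replicate 2 or 3 (adjusted p up to 0.088) and after quantile normalization (adjusted p = 0.0948). Acta1 (1.35), skeletal actin, rose, and Actc1 (0.04), cardiac actin, did not pass. Myh7b (-1.0) and Mylk4 (-1.01), a myosin light chain kinase, fell. Titin, Ttn (-0.19), and Mybpc3 (-0.15) did not pass. At the Z-disc, which anchors the thin filaments and senses stretch, 9 of 25 genes rose and 1 fell, and 9 rose with any 1 array left out. These included Xirp2 (1.41), Fhl1 (1.19) and the ankyrin repeat genes Ankrd23 (1.02) and Ankrd1 (0.81), whereas Actn2 (-0.03), Tcap (-0.51) and Csrp3 (0.18) did not pass. Of 25 microtubule genes 9 rose and 1 fell (median 0.31). The tubulins Tubb2b (0.82) and Tuba1a (0.75) and the microtubule-binding Map1b (1.03) rose and Tuba4a fell (-0.44). Rpl3l (-1.20), the form of ribosomal protein L3 made in muscle, was the only one of 59 cytosolic ribosome genes that fell, and none rose.

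Natriuretic peptides are cut from precursors and then cleared. Nppb, the precursor of the B-type peptide, lay at 11.81, 11.67, 11.20 and 10.93 after AB and 9.39, 9.01 and 9.41 after Sham and rose by 2.13. Nppa, of the atrial peptide, rose by 1.39. Corin, the protease that activates the atrial peptide, lay at 8.38, 8.16, 8.55 and 8.51 after AB and 9.36, 9.93 and 9.45 after Sham. It fell by 1.18 (SE 0.16, adjusted p = 8.60e-05), and all AB arrays were below all Sham arrays. Mme, neprilysin, which degrades both peptides, lay at 4.91, 4.89, 4.97 and 5.17 after AB and 6.12, 6.40 and 6.39 after Sham and fell by 1.32 (adjusted p = 6.86e-07), also without overlap. The clearance receptor Npr3 rose (0.54), and the signalling receptors Npr1 (-0.06) and Npr2 (-0.26) did not pass. The calcineurin target Rcan1 rose by 1.75, while Gata4 (-0.05) and Mef2c (0.19), transcription factors of heart muscle, did not pass and Tbx5 fell (-0.75).

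Proteins are broken down by the proteasome after tagging with ubiquitin, and in the lysosome. Of 28 ubiquitin ligase genes of muscle 15 fell and none rose (median -0.35), and 9 fell without Sham replicate 2. Klhl33 (-1.55), Klhl38 (-1.10), Asb15 (-0.99) and Rnf207 (-0.91) fell. Trim63, an atrophy ligase, was at -0.01 and did not pass. Another ligase of atrophy was among the genes that fell, a call that was lost without Sham replicate 2 or 3 (adjusted p up to 0.0859). In the lysosome 12 of 24 genes rose and 2 fell (median 0.33). Ctsk, a protease that cuts collagen, lay at 7.42, 7.45, 7.20 and 7.13 after AB and 5.51, 5.52 and 5.41 after Sham, apart between groups, with a change of 1.82 (SE 0.10, adjusted p = 4.50e-09). Ctsz (1.24), another cathepsin, rose, and Ctsb (-0.10) and Ctsd (0.03) did not pass. Of 43 proteasome genes 2 rose (4.65%) and 1 fell (2.33%), below the shares of all genes. Among 21 galectins, annexins and S100 proteins 14 rose and 3 fell, with a median of 0.68. Anxa1 (1.39), which curbs inflammation, S100a6 (1.0) and S100a11 (0.98) rose, and Lgals4 (-1.36) fell.

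Of 47 redox genes 10 rose (21.3%, against 8.28% of all genes) and 4 fell (8.51%, against 5.86%), with a median of -0.01. Of 11 genes whose products make reactive oxygen 6 rose and 1 fell. Nox4, the oxidase of fibroblasts and muscle, lay at 6.84, 7.41, 7.26 and 6.69 after AB and 5.0, 4.87 and 4.54 after Sham (change 2.25, adjusted p = 4.34e-07), and Cybb (1.02) of phagocytes rose too. Maob (-0.90), monoamine oxidase B, fell. Among 36 genes of defence 4 rose (11.1%) and 3 fell (8.33%), near the 8.28% and 5.86% of all genes. Gpx3 (0.97) and Gpx1 (0.92), glutathione peroxidases, rose. Nnt (-0.83), which makes NADPH in mitochondria, and Aldh2 (-0.90), which clears aldehydes, fell. Sod2 (-0.26) and Nfe2l2 (0.00) did not pass. Of 22 genes of cell death 7 rose and none fell. Casp12 (1.25), Bcl2 (0.78), which blocks apoptosis, and Bak1 (0.68), which drives it, were among these. Of 37 genes of stress in the endoplasmic reticulum 5 rose and 4 fell (10.8%, against 5.86% of all genes), with a median of 0.03. Of its 18 chaperones 3 rose and 2 fell, Hspa5 (-0.61) among the latter. Of 17 clock genes 5 fell and none rose, a count that was 0 without Sham replicate 3 and 1 without Sham replicate 1 or 2. Every one of those calls was lost with some array left out, and no source used here says at what hour of the day hearts were taken.

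The array also carries probe sets named for miRNA genes. They do not tell hairpin, primary transcript and mature miRNA apart. Of 300 such genes 4 rose and 7 fell, below the share of all genes, and the median was -0.03. The called genes include a long host transcript that is named for a miRNA. The middle miRNA gene of the list by mean level stood above 19.4% of all genes, so that most were near the dim end of the array. The 6 described here were chosen after their values were seen, from those with mature sequences in RefSeq (GRCm38.p6). Called miRNA genes of 1 further chromosome were passed over in this choice. The 6 hold a smaller share of falls than all the called miRNA genes do. Mir208a, encoded in an intron of Myh6, lay at 6.67, 6.35, 6.80 and 6.36 after AB and 7.18, 7.71 and 7.72 after Sham. It fell by 0.99 (SE 0.18, adjusted p = 0.00126) with all AB arrays lower, a call that held with any 1 array left out. Mir677 lay at 5.16, 5.28, 5.25 and 5.20 after AB and 5.42, 6.29 and 6.14 after Sham and fell by 0.73 (adjusted p = 0.00459), and its Sham replicate 1 was well below the other Sham arrays. Mir490, encoded in an intron of the muscarinic receptor gene Chrm2, fell by 0.68, with AB and Sham arrays overlapping, a call lost without AB replicate 1 or 3 or Sham replicate 2 or 3 (adjusted p up to 0.133) and with Alb as a covariate (adjusted p = 0.0923). Mir221 (0.41), Mir224 (0.67) and Mir16-2 (0.49) rose. All 3 were dimmer than the middle miRNA gene of the list, so their changes were read near the dim end of the array. Mir224 overlapped between the groups, with AB replicate 1 at 3.54 and Sham replicate 2 at 3.62. The Mir221 call was lost without AB replicate 3 or 4 or Sham replicate 2 or 3 (adjusted p up to 0.166) and with Alb as a covariate (adjusted p = 0.0844). The Mir224 call was lost without Sham replicate 1 or 3 (adjusted p up to 0.0734). That of Mir16-2 was lost without AB replicate 2 or 3 or Sham replicate 1, 2 or 3 (adjusted p up to 0.121) and with Alb as a covariate (adjusted p = 0.0633). The mature sequences are given 5′ to 3′ because a seed decides which transcripts a miRNA can pair with. Bases 2 to 8, the seed, are in capitals, and no 2 of the 12 share a seed.
mmu-miR-16-5p: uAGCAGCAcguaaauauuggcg
mmu-miR-16-2-3p: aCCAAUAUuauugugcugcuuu
mmu-miR-490-5p: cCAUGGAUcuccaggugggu
mmu-miR-490-3p: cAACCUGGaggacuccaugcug
mmu-miR-677-5p: uUCAGUGAugauuagcuucuga
mmu-miR-677-3p: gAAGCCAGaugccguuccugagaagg
mmu-miR-208a-3p: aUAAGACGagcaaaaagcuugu
mmu-miR-208a-5p: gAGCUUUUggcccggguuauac
mmu-miR-221-3p: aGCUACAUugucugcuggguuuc
mmu-miR-221-5p: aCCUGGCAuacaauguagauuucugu
mmu-miR-224-3p: aAAUGGUGcccuagugacuaca
mmu-miR-224-5p: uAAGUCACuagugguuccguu

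Whether a CXCR5-/- heart responded to AB otherwise than a WT heart was tested as the difference of the 2 responses. These comparisons share no array, but they share the estimate of spread. In WT hearts 1016 genes rose and 842 fell. No gene passed for the difference of responses, the smallest adjusted p being 0.804, and 574 genes had an unadjusted p under 0.05, fewer than the 997 that this threshold would give with no difference in any gene. A count that is larger in CXCR5-/- hearts is therefore not shown to differ gene by gene. The values that follow are therefore descriptions. Genes were taken from those that rose or fell in CXCR5-/- hearts, a choice that favours a larger change there than in WT hearts. Among these the smallest unadjusted p was that of Ccn1, a matricellular protein induced by stretch. Its change was 1.44 in CXCR5-/- and 0.59 in WT hearts, a difference of 0.86 (limma's unadjusted p = 6.19e-04). Cxcl10 followed, with 1.67 and 0.75 (limma's unadjusted p = 9.84e-04). For Ifit1 the changes were 0.60 and 0.09 (limma's unadjusted p = 0.00102). Ephb1 (-0.70 against -0.09), an ephrin receptor, and Iqcn (-0.41 against 0.17), whose call in CXCR5-/- hearts was lost with Alb as a covariate (adjusted p = 0.0516), had the next values. For the class II invariant chain Cd74 the changes were 1.05 and 0.31 (limma's unadjusted p = 0.00136). The median change of the macrophage list was 0.65 in CXCR5-/- and 0.38 in WT hearts, that of fatty acid use -0.48 and -0.43, and that of the mitosis genes 0.51 and 0.35. Other lists had the larger median in WT hearts. Among them were inflammatory chemokines and receptors, with 0.11 in CXCR5-/- and 0.21 in WT hearts, and Z-disc genes, with 0.20 and 0.31.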

How the data were processed

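Left ventricles of 14 mice were measured on 1 Affymetrix mouse ST 1.0 array each, and the comparison used 4 CXCR5-/- AB and 3 CXCR5-/- Sham arrays. RNA was extracted with a column kit, for which the labels and the study's methods name different products. The deposited values are log2 intensities that the authors computed by robust multi-array average, RMA, and no further normalization was applied. RMA draws each array to a common distribution, so a shift of all genes in 1 group would be lost. Of 34760 probe sets 21640 had 1 gene symbol, 1321 had several and 11799 had none. One probe set per gene was kept, that with the highest mean over the 14 arrays, which gave 19937 genes. A probe set can include sequence shared with related genes, so close paralogs are less certain.

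All 14 arrays were fitted with limma 3.58.1 in R 4.3.3, with 1 mean for each of the 4 groups, and the contrast was CXCR5-/- AB minus CXCR5-/- Sham. P-values were adjusted as Benjamini and Hochberg describe, across the 19937 genes, and 0.05 was the threshold. The spread had 10 residual degrees of freedom and a median SD of 0.15. The procedure was tested on simulated data with 200 changed genes. It recovered 48.5% of them at a log2 change of 0.5 and 96% at a change of 1. The members and gene lists were chosen with earlier results of these data known, so lists are described by counts and medians without a set test, and lists can share genes. Genes to name were taken from a rule: the 25 largest increases and decreases without overlap, the 5 smallest p in each list and direction or 2 where none passed, the first gene of each role, the 5 smallest p for the difference of responses, and Myl7 and Alb. Over all lists the rule gives 430 genes, of which 223 are named, and those left out of the lists were a choice made with values known. A further 120 of the 343 genes named, 43 of them called, were chosen after their values were seen, as were the miRNA genes. Promoter and miRNA sequences came from RefSeq (GRCm38.p6). Alternatives were other variance models, array weights, the 7 arrays alone, a filter on dim probe sets, other normalizations, other choices of probe set, the replicate block, covariates for atrial transcripts and Alb, and arrays left out. The number of arrays limits the precision.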

Additional observations from a re-analysis of the deposited data

Results flagged for a closer look

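For 22 of the 343 genes named, 1 of the 4 CXCR5-/- AB arrays stood far from the other 3, its distance to the nearest being more than 0.829 of the whole range of the group. Chance alone gives such a distance in about 1 of 20 groups of 4. AB replicate 1 had the lowest level, at 6.59 for Iigp1. AB replicate 2 had the highest level, at 7.83 for Isg20, 3.72 for Plac8 and 8.70 for Sdc2, and the lowest level, at 8.61 for Abcc9, 10.64 for Dsp, 10.40 for Idh3a, 4.37 for Lef1 and 6.82 for Myh7b. AB replicate 3 had the highest level, at 5.51 for Bcat1, 8.83 for P4ha1 and 7.82 for Ppara, and the lowest level, at 13 for Actc1, 6.03 for Fbp2 and 5.49 for Gpr22. AB replicate 4 had the highest level, at 7.28 for Fgf13, 8.94 for Gata4, 6.84 for Kcnj3 and 9.86 for Tuba4a, and the lowest level, at 6.55 for Cthrc1, 6.58 for Edn1 and 10.53 for Serping1. For Kcnj3 the other AB arrays lay at 6.05 to 6.18 and for Edn1 at 7.20 to 7.31. The number of arrays limits what this says of any 1 gene. No gene passed the test of the difference between the CXCR5-/- and WT responses.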

How the results depend on the processing

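The number of genes that rose was 1650 and the number that fell 1168. With 1 CXCR5-/- array left out the number that rose lay between 1176 and 1573 and the number that fell between 652 and 1098, the lower counts of falls being 652 without Sham replicate 2, 715 without Sham replicate 3 and 768 without AB replicate 2. Weighting the arrays by their own spread gave 2632 higher and 2138 lower, with Sham replicate 3 given a weight of 3.91. Leaving out both Sham replicates 1 and 2 gave 540 and 253. That fit kept a single Sham array and also removed the Sham arrays highest in Myl7, and the cause of the fewer calls was not tested. Significance analysis of microarrays, the test named in the study's methods, gave 2189 and 1716 on the 7 arrays at a q-value under 0.05, and with equal array medians 1346 rose and 1449 fell. None of the 2818 called genes had the opposite sign in any of these limma fits. The median of the triglyceride list was -0.21, and 0.0112, of the opposite sign, without both Sham replicates 1 and 2, and the cause was not tested. Of the 243 named genes that passed, 3 to 16 lost the call with 1 array left out, 71 without both Sham replicates, 11 with Alb and 4 with the atrial transcripts as a covariate. The remaining alternatives each ended 0 to 4 of these calls. The labels give the groups the same replicate numbers. With the replicate block 2027 genes rose and 1596 fell, but AB and Sham arrays of the same number did not deviate together, the correlations being 0.13, -0.11 and -0.01 for numbers 1 to 3, and 2 of 6 arrays correlated best with their own number. Between genotypes the correlations were 0.13 to 0.22 for the 4 pairs of AB arrays, of which 2 of 8 correlated best with their own number, and 0.03 to 0.45 for the 3 pairs of Sham arrays, 3 of 6. The replicate number was therefore not taken to pair the arrays of the comparison, although same-numbered AB arrays of the genotypes deviated together weakly. No gene passed for the difference of responses under any alternative run. The number of arrays limits the precision, and a gene that did not pass is not shown to be unchanged.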

Other observations

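Proteoglycans, integrins and several smaller gene groups were also measured in CXCR5-/- hearts. Of 29 genes of hyaluronan and proteoglycans 8 rose and 1 fell. Vcan, the versican of provisional matrix, lay at 8.70, 8.65, 8.90 and 8.42 after AB and 7.18, 7.13 and 6.90 after Sham and rose by 1.6 (adjusted p = 1.62e-06), with no overlap, and Prg4 (1.04), lubricin, and Sdc2 (0.75), a syndecan, rose too, whereas the hyaluronan synthase Has2 (0.06) did not pass. Of 25 integrin subunits and related genes 6 rose (24.0%) and 2 fell (8.0%), against 8.28% and 5.86% of all genes. Itga11 (0.64), the collagen receptor of fibroblasts, rose and Itgb1 (0.03), its partner, did not pass. Of 23 basement membrane genes 6 rose (26.1%) and 2 fell (8.7%), with Col15a1 (1.09) the largest increase and Lama5 (-0.73) the largest decrease of the list.

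Of 30 immediate early genes 5 rose (16.7%) and 1 fell (3.33%), against 8.28% and 5.86% of all genes. Myc, a factor of growth, lay at 7.22, 7.46, 7.03 and 6.49 after AB and 6.12, 5.76 and 5.77 after Sham and rose by 1.16 (adjusted p = 0.00149), while Fos (0.30) and Jun (-0.02) did not pass. In the creatine list Gatm (0.90), which makes the creatine precursor, and Ckb (0.55), the brain form of creatine kinase, rose, and Ckm (-0.26), the muscle form, did not pass. Of 16 genes of Schwann cells and neurons 1 rose (6.25%, against 8.28% of all genes). It was Uchl1, a ubiquitin hydrolase of neurons, at 8.57, 9.04, 8.44 and 8.29 after AB and 6.85, 7.01 and 6.77 after Sham, with no overlap. None of the other 15 passed.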
